A study of Mus musculus with 20 samples.

Results

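Genes of the synaptic vesicle and of the active zone were followed in the hippocampus of adult mice whose mothers had breathed nano-sized particulate matter (nPM) or filtered air. The 32 genes were taken by symbol from the 48709 genes of the deposited count table, and all 32 passed the filter on low counts that left 19797 genes for testing. The 20 mice, C57BL/6 in the labels and C57BL/6J in the study's methods, fell into 4 groups of 5, namely females and males of filtered-air dams (controls) and females and males of nPM dams. Dams of the nPM groups inhaled re-aerosolized urban nPM in daily sessions of 5 h, 3 days a week, from gestational day 2 until birth, and dams of the control groups inhaled filtered air on the same schedule. The labels give the nPM concentration as 300 mg/m3, whereas the study's methods write μg/m3. The females were between 17.71 and 18.29 weeks old and the males between 18.57 and 19.14 weeks, so age and sex cannot be told apart in these samples. According to the methods, males also received injections of the cell-division label EdU. The methods add that all animals got EdU, without saying whether females are meant. Brains were perfused with saline, and RNA came from the hippocampus of the right hemisphere. Per the methods the adults of an exposure came from 5 litters, fewer than its samples here, so littermates are among them. The sources used here do not tie a sample to its litter, so p-values measure the spread between these samples only.

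Neurons store neurotransmitter in synaptic vesicles and release it at the active zone, a protein-dense patch of the presynaptic membrane. Vesicles are tethered there by large scaffold proteins and by Rab3 GTPases, primed by Munc13 proteins, and fused by the SNARE proteins synaptobrevin, syntaxin and SNAP-25, while complexins hold fusion back until calcium enters. The ATPase NSF with its SNAP adaptors then takes the spent SNARE complex apart so that its parts can be used again. In the hippocampus most of these terminals belong to glutamatergic granule and pyramidal neurons and fewer to inhibitory interneurons.

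Levels between genes were compared per kilobase of gene length, as RPKM with the depth scaled by TMM (trimmed mean of M-values, a normalization for library composition). The SNARE gene Snap25 had the highest level, 210 ± 28.0 RPKM (SD, n = 20), and the complexin Cplx3 the lowest, 1.19 ± 0.799 RPKM. The median of the 32 genes was 30.3 RPKM against 3.38 RPKM over all genes tested, 30 of the 32 genes lay above the latter value, and 20 lay in the top 10% of genes. Syn3 and Cplx3 were the exceptions below the median of all genes.

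**Figure D1:**
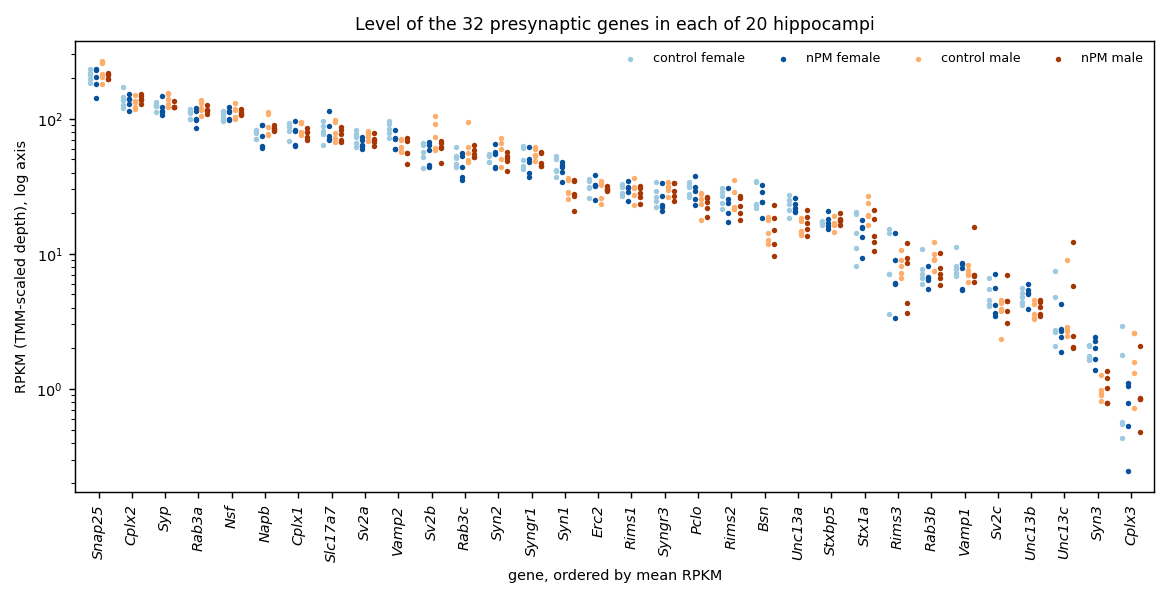
The level of each of the 32 genes (RPKM with TMM-scaled depth, log axis) is plotted for the 20 samples, 1 point per sample, coloured by group, with genes ordered by their mean. Points run from about 200 RPKM for Snap25 down to values near 1 RPKM for Syn3 and Cplx3, and the points spread most for Rims3, Unc13c and Cplx3.

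Among the vesicle membrane proteins, synaptophysin (Syp, a major cholesterol-binding protein of the vesicle) stood at 127 ± 13.2 RPKM, the SV2 glycoproteins Sv2a, Sv2b and Sv2c at 70.8 ± 6.87, 62.8 ± 15 and 4.54 ± 1.249 RPKM, and the synaptogyrins Syngr1 and Syngr3 at 51.2 ± 7.82 and 28.1 ± 4.36 RPKM. The synapsins, which tie vesicles to one another in the reserve pool, were led by Syn2 at 53.2 ± 8.05 RPKM, followed by Syn1 at 36.6 ± 8.83 and Syn3 at 1.45 ± 0.530 RPKM. Slc17a7, which encodes VGLUT1 and fills vesicles with glutamate, stood at 80.9 ± 12.8 RPKM. Of the summed RPKM of the SV2 genes, Sv2a held 41.7% to 59.3% and Sv2b 35.5% to 57.0% over the 20 samples. Whether their levels differ was not tested.

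Of the SNARE genes, Snap25 was followed by the synaptobrevin Vamp2 at 69.0 ± 12.7 RPKM, the syntaxin Stx1a at 16.3 ± 4.90 RPKM and the synaptobrevin Vamp1 at 7.79 ± 2.29 RPKM. Vamp2 held 89.7% ± 3.17 (SD, n = 20) of the summed RPKM of Vamp1 and Vamp2. Among the regulators, Cplx2 reached 137 ± 13.9 RPKM and Cplx1 81.6 ± 10.2 RPKM, so that Cplx2 made up 62.4% ± 3.84, Cplx1 37.1% ± 3.61 and Cplx3, known from ribbon synapses of the retina, 0.541% ± 0.359 of the complexins. Nsf stood at 110 ± 9.10 RPKM and Napb, the beta-SNAP adaptor of NSF, at 82.4 ± 12.6 RPKM, while the syntaxin-binding protein tomosyn (Stxbp5) stood at 17.3 ± 1.49 RPKM.

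Rab3a, the main GTPase of the vesicle surface in forebrain, stood at 113 ± 12.2 RPKM and held 64.9% ± 4.03 of the Rab3 transcripts per length, against 30.6% ± 3.78 for Rab3c and 4.48% ± 0.596 for Rab3b, whose levels were 53.7 ± 12.4 and 7.86 ± 1.83 RPKM. At the active zone, the scaffold Erc2 (ELKS2/CAST) stood at 31.0 ± 3.82 RPKM, the RIM proteins Rims1, Rims2 and Rims3 at 29.5 ± 3.56, 24.5 ± 4.69 and 8.26 ± 3.56 RPKM, and the giant scaffolds Piccolo (Pclo) and Bassoon (Bsn) at 27.0 ± 4.92 and 20.9 ± 7.43 RPKM. Of the Munc13 priming factors, Unc13a stood at 19.6 ± 4.14 RPKM, Unc13b at 4.43 ± 0.770 RPKM and Unc13c at 3.91 ± 2.76 RPKM. Unc13a held 70.1% ± 8.74 of the Munc13 transcripts per length. The neighbours Unc13b and Unc13c, with 15.9% ± 1.81 and 14% ± 9.36, overlapped between samples. All shares per length rest on the deposited gene lengths, here 12623 bases for Unc13a, 22746 for Unc13b and 8796 for Unc13c. Without division by length, Unc13b lay above Unc13c in females, at 89.0 to 136 against 16.5 to 65.6 CPM (counts over the TMM-scaled depth). In males the ranges overlapped, at 75.2 to 103 CPM for Unc13b and 17.6 to 108 CPM for Unc13c.

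Samples of a group differed most in Cplx3, Unc13c and Rims3, with a within-group SD of 0.92, 0.82 and 0.70 on the log2 scale. The median within-group SD was 0.22 over the 32 genes and 0.26 over all genes tested. Unc13c, the Munc13 form known from the cerebellum, ran from 16.5 to 108 CPM (counts over the TMM-scaled depth) over the 20 samples, and its share of the Munc13 transcripts ran from 5.68% to 42.0%. Its highest values, 108 CPM in nPM male 1, 79.6 CPM in control male 1 and 65.6 CPM in control female 1, came from 3 different groups. The smallest within-group SD belonged to Nsf (0.12), Stxbp5 (0.13), Sv2a (0.13) and Syp (0.13).

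Samples held 19092067 to 38663408 counts, Snap25 had 28609 to 54311 counts per sample, and only Cplx3 (21 to 215) and Syn3 (281 to 912) fell below 400 in any sample. Marker lists written for hippocampal and other cells were read beside the tissue label. All 10 dentate granule cell markers, 8 CA1 markers and 8 CA3 and CA2 markers had counts in every sample, and 10 pan-neuronal markers summed to between 3362 and 5272 CPM. All striatal, neocortical, glial and endothelial markers had counts in every sample too, so such counts cannot tell the hippocampus from other regions. The 12 choroid plexus markers also had counts in every sample and differed most, with a summed level of 267 to 12373 CPM in control males, 307 to 1009 CPM in control females, 383 to 9272 CPM in nPM males and 291 to 13963 CPM in nPM females. The 12 striatal markers summed to 731 CPM in nPM female 1 against 223 to 298 CPM in the male samples and 246 to 277 CPM in control females. The share of lincRNA among all counts was 2.47% to 3.55% in females and 1.43% to 2.15% in males, without overlap.

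The first comparison asked which presynaptic genes differed in adults after gestational nPM when both sexes were fitted at once. None of the 32 genes reached the study's threshold of p under 0.005 in limma-voom with sex as a covariate, at which 0.141% of all 19797 genes were called. At p under 0.05, 3 of the 32 genes were called, all lower after nPM, where 1.11% of all genes were lower at this level. They were Rab3b (log2 fold change −0.27, SE 0.11, limma p = 0.0244 and exact permutation p = 0.0422), Vamp2 (−0.19, SE 0.084, limma p = 0.0323 and exact permutation p = 0.0464) and Sv2a (−0.12, SE 0.057, limma p = 0.0481 and exact permutation p = 0.0513). The adjusted p of each was 0.9998. With 1 sample left out, limma p ran from 0.00751 to 0.0558 for Rab3b and from 0.00868 to 0.0736 for Vamp2. Under the alternatives the values ran from −0.28 to −0.23 for Rab3b and from −0.19 to −0.12 for Vamp2. The median log2 fold change of the 32 genes was −0.09 against −0.006 over all genes, and 24 of the 32 genes had a negative value against 53% of all genes. The edgeR quasi-likelihood test and DESeq2 called 0 of the 32 genes as well.

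Some marker lists of other cells and regions also leaned to one side in the fit of both sexes, with 0 markers past p under 0.005. All 11 neocortical layer markers had negative values after nPM (median −0.19), as did 11 of 12 markers of GABAergic interneurons (median −0.06). All 10 microglial markers (median 0.08), 9 of 10 oligodendrocyte markers (median 0.07) and 10 of 12 striatal markers (median 0.15) had positive values. So did 8 of 10 dentate granule cell markers (median 0.10), 6 of 8 endothelial markers and the 3 blood markers tested. Other lists were mixed, with positive values for 5 of 8 CA1, 5 of 8 CA3 and CA2, 7 of 12 choroid plexus, 4 of 10 astrocyte and 4 of 11 thalamic markers. The pan-neuronal markers were split 5 to 5. In males alone 7 of the 12 striatal markers were positive (median 0.03), and the highest striatal sum was that of nPM female 1. The neocortical markers summed to 264 to 415 CPM in control females, 248 to 347 CPM in nPM females, 340 to 432 CPM in control males and 271 to 386 CPM in nPM males, with overlapping ranges and no marker at 0. The part of these markers in the values of the 32 genes was not tested.

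By role, 5 of the 6 vesicle membrane genes, all 4 SNARE genes and all 3 Rab3 genes had negative values, with medians of −0.11, −0.14 and −0.14. Of the 9 scaffold and priming genes 6 were negative, of the 6 regulators and recycling genes 3, of the synapsins 2 of 3, and Slc17a7 was at −0.03. The value farthest from 0 was that of Cplx3, −0.69 with an SE of 0.36 (limma p = 0.0699, exact permutation p = 0.121). In 19 of the 32 genes the value was negative in both sexes and in 4 it was positive in both, which describes the 32 genes and is no test of them.

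**Figure D2:**
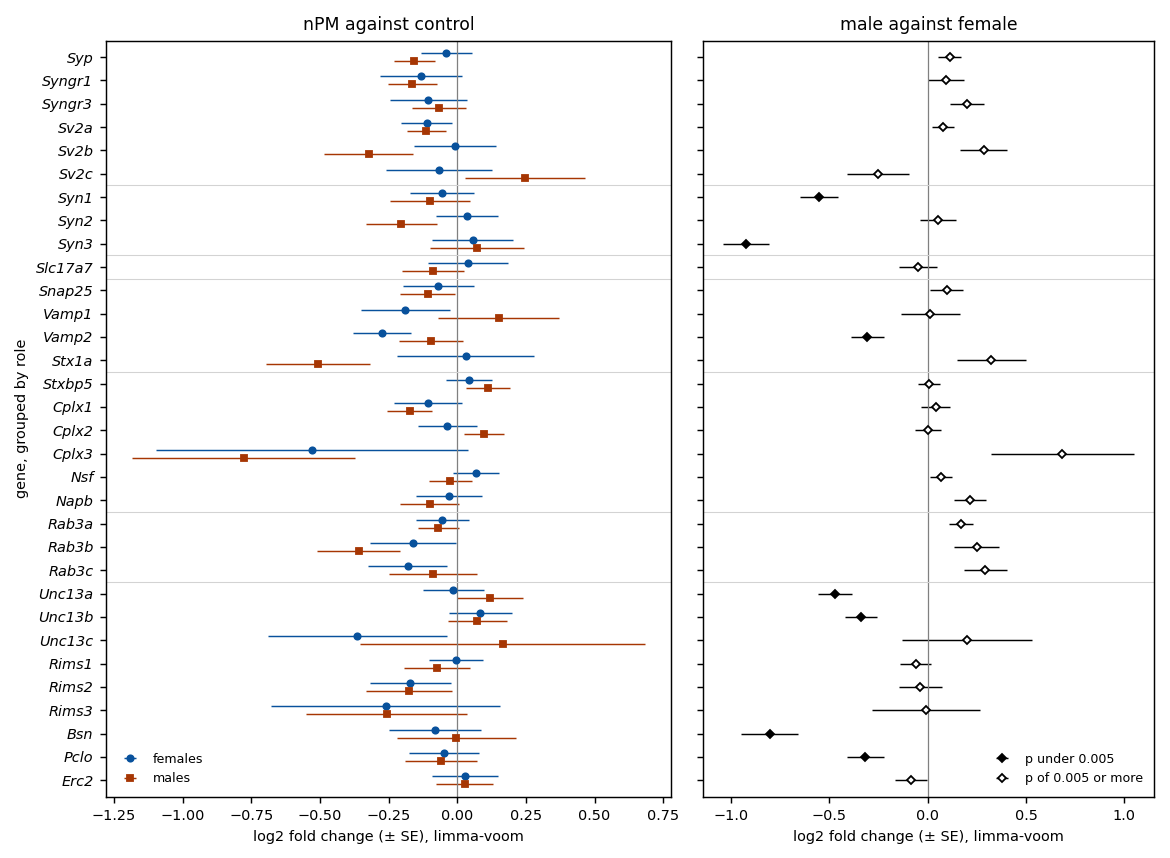
The left panel plots the log2 fold change of nPM against control (± SE) for each of the 32 genes in females and in males, and the right panel that of males against females, with genes grouped by role and filled symbols for p under 0.005. In the left panel most values lie between 0 and −0.25 and no gene is past the threshold, while in the right panel 7 genes are, all on the negative side.

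Rab3b (ENSMUSG00000003411.10, mm10 chromosome 4, 108879063 to 108943324) is a Rab3 form known from particular sets of neurons and from endocrine cells. In males it read 43.0, 26.5, 35.4, 32.4 and 31.8 CPM in controls 1 to 5 and 20.7, 27.5, 23.5, 35.6 and 25.0 CPM after nPM. Of the 5 nPM males 3 lay below every control male, and nPM males 2 and 4 lay within the control range. In females it read 25.1, 38.5, 23.2, 27.2 and 20.95 CPM in controls and 22.6, 23.3, 28.6, 23.9 and 19.5 CPM after nPM, with overlapping ranges. The means were 33.8 ± 6.07 and 26.4 ± 5.67 CPM in males and 27.0 ± 6.83 and 23.6 ± 3.26 CPM in females (SD, n = 5).

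Vamp2 (ENSMUSG00000020894.16, mm10 chromosome 11, 69088490 to 69092384) encodes the main synaptobrevin of forebrain vesicles. In females it read 298, 364, 317, 273 and 346 CPM in controls and 227, 274, 314, 227 and 270 CPM after nPM. Of the 5 nPM females 3 lay below all control females, and the others within their range. In males it read 216, 237, 267, 218 and 268 CPM in controls and 213, 176, 214, 275 and 260 CPM after nPM, with overlapping ranges. Vamp2 had the smallest p of the 32 genes in females (log2 fold change −0.27, SE 0.11, limma p = 0.0238, adjusted p = 0.9999), with an exact permutation p of 0.0476, and in males the value was −0.10.

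Sv2a (mm10 chromosome 3, 96181151 to 96195521), the SV2 form present in nearly all terminals, read 287 to 384 CPM in control females and 275 to 343 CPM in nPM females, and 315 to 377 CPM in control males and 293 to 365 CPM in nPM males. In each sex the ranges overlapped.

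Within males, limma-voom again called 0 of the 32 genes at p under 0.005 (0.207% of all genes), and 2 genes had a p under 0.05, where 4.28% of all genes did. Stx1a (ENSMUSG00000007207.10, mm10 chromosome 5, 135023482 to 135051100), the plasma membrane SNARE syntaxin-1A, had the smallest p (−0.51, SE 0.19, limma adjusted p = 0.963, p = 0.0635 by exact permutation). It read 63.7, 43.4, 71.0, 51.2 and 52.0 CPM in control males and 27.9, 35.9, 32.7, 56.7 and 47.9 CPM in nPM males. Of the nPM males 3 lay below all control males, and nPM males 4 and 5 lay within the control range. Rab3b followed (−0.36, SE 0.15, limma adjusted p = 0.963, p = 0.0873 by exact permutation). Without nPM male 4, both genes passed the threshold, Stx1a at −0.65 and Rab3b at −0.48, each with a limma adjusted p of 0.931. Over all fits with 1 sample left out, limma p ran from 0.00303 to 0.0525 for Stx1a and from 0.00436 to 0.084 for Rab3b. In some of these fits neither p under 0.05 was kept. Under the alternatives the values ran from −0.53 to −0.40 for Stx1a and from −0.38 to −0.23 for Rab3b.

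Within females, 0 of the 32 genes were called (0.0909% of all genes), and 1 gene, Vamp2, had a p under 0.05, as did 1.99% of all genes. Rab3c (ENSMUSG00000021700.9, mm10 chromosome 13, 110054187 to 110280206) had the next smallest p (−0.18, SE 0.14, limma p = 0.226, exact permutation p = 0.286), from 433, 526, 390.5, 449.6 and 374 CPM in controls and 316, 374, 476, 453 and 297 CPM after nPM. Of the nPM females 2 lay below all control females and the others within their range. The number of the 32 genes with a positive value in females, 8 in all samples, was 15 without nPM female 1, 13 without control female 2 and 17 without nPM females 1 and 4. The ranges of the nPM and control samples overlapped for all 32 genes in males, where they did not for 0.667% of all genes, and for all 32 in females, where they did not for 0.364%.

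**Figure D3:**
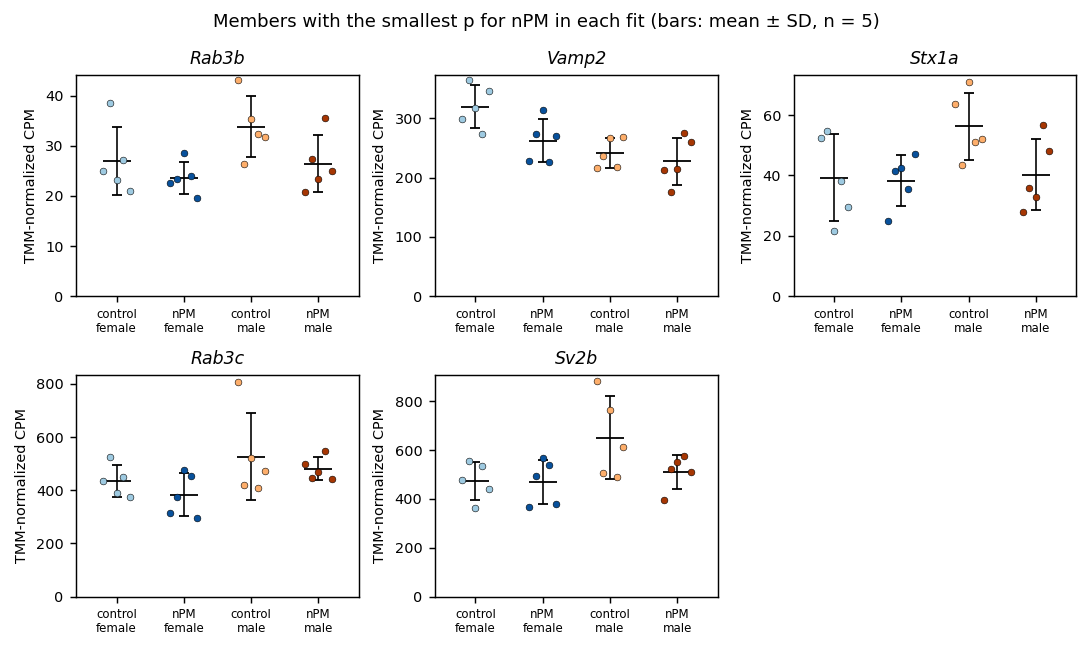
TMM-normalized CPM of the genes with the smallest p in the 4 fits that involve nPM are plotted for each sample by group, with the mean and SD (n = 5) as bars. The nPM males of Stx1a and Rab3b reach lower than the control males but overlap them, and the nPM females of Vamp2 reach lower than the control females but overlap them.

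The interaction of sex and nPM asked whether the difference after nPM was itself different between the sexes. It called 0 of the 32 genes at p under 0.005 (0.217% of all genes) and 0 at p under 0.05 (3.79%), by limma-voom, with 17 values positive and 15 negative. The edgeR quasi-likelihood test and DESeq2 called 0 at p under 0.005. The smallest p was that of Stx1a (difference of log2 fold changes, male minus female, −0.52, SE 0.34, limma adjusted p = 0.987). Stx1a read 52.4, 54.8, 21.7, 38.1 and 29.4 CPM in control females and 25.0, 41.6, 42.3, 35.4 and 47.2 CPM in nPM females, with overlapping ranges. Next was Sv2b (mm10 chromosome 7, 75114894 to 75309262), at −0.30 (SE 0.23, limma adjusted p = 0.987). Sv2b read 882, 506, 764, 491 and 611 CPM in control males and 395, 522, 552, 575 and 511 CPM in nPM males, and its high control values came from control males 1 and 3. In females it read 477, 557, 363, 536 and 440 CPM in controls and 366, 492, 568, 538 and 380.5 CPM after nPM.

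Of 101 other presynaptic genes tested, listed as calcium sensors, SNAREs, active zone proteins, vesicle proteins and endocytosis proteins, 0 passed p under 0.005 with both sexes and 0 in females, while 1 passed in males and in the interaction. This was Doc2b, a calcium sensor of spontaneous release, higher after nPM in males (0.54, SE 0.094, limma adjusted p = 0.963) and with an interaction of 0.53 (SE 0.16, limma adjusted p = 0.987). With both sexes Doc2b also had the smallest p of the 101 genes (0.27, SE 0.097, limma adjusted p = 0.9998), and in females it was the SNARE gene Snap23 (0.27, SE 0.12, limma adjusted p = 0.9999). Negative values with both sexes were found for 68 of the 101 genes, against 53% of all genes. They were found for 18 of 22 endocytosis genes, 15 of 19 calcium sensor and priming genes, 13 of 21 SNARE genes, 12 of 21 vesicle genes and 10 of 18 active zone genes.

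The other comparison the design holds is that of 10 males with 10 females, with exposure as a covariate. Sex coincides here with age, and with the EdU injections if only males received them, which the methods leave unclear. The share of lincRNA among counts also did not overlap between the sexes. Age, the lincRNA share and any EdU given to males alone cannot be told apart from sex in this comparison. At p under 0.005, 7 of the 32 genes were lower in males and 0 were higher, where 17.1% of all genes were lower and 13.9% higher, 31.1% in all. Differences between the sexes ran across the whole table, and the share of the 32 genes called was no higher than that of all genes. The 7 genes were Syn3, Bsn, Syn1, Unc13a, Unc13b, Pclo and Vamp2, that is 2 of the 3 synapsins, both giant scaffolds, 2 of the 3 Munc13 genes and 1 of the 4 SNARE genes. At an adjusted p under 0.05, where 40.4% of all genes were called, the same 7 were lower and Napb, Rab3a and Rab3c were higher in males (0.22, 0.17 and 0.29), where 21.6% of all genes were lower and 18.8% higher. All 3 Rab3 genes and 5 of the 6 vesicle membrane genes had positive values, and 8 of the 9 scaffold and priming genes had negative ones.

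Markers of other cells differed between the sexes in the same fit. All 8 endothelial markers had negative values in males (median −0.27, 4 at p under 0.005), and their sum was 193 to 270 CPM in females and 149 to 183 CPM in males, without overlap. All 10 oligodendrocyte markers (median 0.32) and all 10 microglial markers (median 0.27) had positive values, 3 of each at p under 0.005, and 8 of 10 astrocyte markers did (median 0.17, 4 at p under 0.005). Of the 10 pan-neuronal markers 3 were higher and 2 lower in males at p under 0.005. All 12 choroid plexus markers (median 1.23) and the 3 blood markers tested (median 1.63) had positive values, with 0 past the threshold. The part of these markers in the 7 calls was not tested, apart from the choroid plexus level.

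Syn3 (ENSMUSG00000059602.14, mm10 chromosome 10, 86055125 to 86498896), the synapsin known for its role in developing neurons, read 17 to 29.9 CPM in females (median 23.0) and 9.64 to 16.8 CPM in males (median 11.7). It was the 1 gene of the 32 whose sexes did not overlap, as for 4.81% of all genes. Males stood at a log2 fold change of −0.92 (SE 0.12, limma adjusted p = 9.19e-06), −0.93 among controls and −0.92 among nPM samples. Of the Syn3 exon bases 14.1% lie under exons of Timp3 on the opposite strand, and a strand setting of the counting is not given in the sources used here. Timp3 itself had a value of 0.22 between the sexes (SE 0.14, limma adjusted p = 0.199).

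Syn1 (ENSMUSG00000037217.15, mm10 chromosome X, 20860511 to 20921004), the synapsin of mature terminals, read 113 to 174 CPM in females (median 142) and 68.7 to 121 CPM in males (median 93.4), and 4 males lay above the lowest female (−0.55, SE 0.097, limma adjusted p = 0.000156). Syn2 stood at 0.05 between the sexes. The share of Syn1 in the synapsin transcripts per length was 45.4% ± 3.63 in control females, 34.3% ± 3.5 in control males, 43.8% ± 2.34 in nPM females and 35.8% ± 2.42 in nPM males (SD, n = 5).

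Bsn (ENSMUSG00000032589.14, mm10 chromosome 9, 108096022 to 108190384) read 293 to 549 CPM in females (median 386) and 155 to 364 CPM in males (median 234), at −0.80 (SE 0.14, limma adjusted p = 0.000197). Its relative Pclo (mm10 chromosome 5, 14514918 to 14863459) read 515 to 842 CPM in females (median 682) and 402 to 634 CPM in males (median 560), at −0.32 (SE 0.093, limma adjusted p = 0.00964). Leaving out 1 sample made Pclo miss the threshold in 6 of 20 fits. Both sets of samples overlapped.

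Unc13a (ENSMUSG00000034799.16, mm10 chromosome 8, 71624417 to 71671757), the Munc13 form of most forebrain synapses, read 231 to 346 CPM in females (median 283) and 171 to 266 CPM in males (median 204), at −0.47 (SE 0.085, limma adjusted p = 0.000203). Unc13b (mm10 chromosome 4, 43058953 to 43264871) read 89.0 to 136 CPM in females (median 116) and 75.2 to 103 CPM in males (median 87.3), at −0.34 (SE 0.080, limma adjusted p = 0.00198). Vamp2 read 227 to 364 CPM in females (median 286) and 176 to 275 CPM in males (median 228), at −0.31 (SE 0.084, limma adjusted p = 0.00569). For all 3 genes the sexes overlapped. Exact permutation tests within exposure gave p between 3.15e-05 for Syn3 and 0.00431 for Pclo over the 7 genes.

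**Figure D4:**
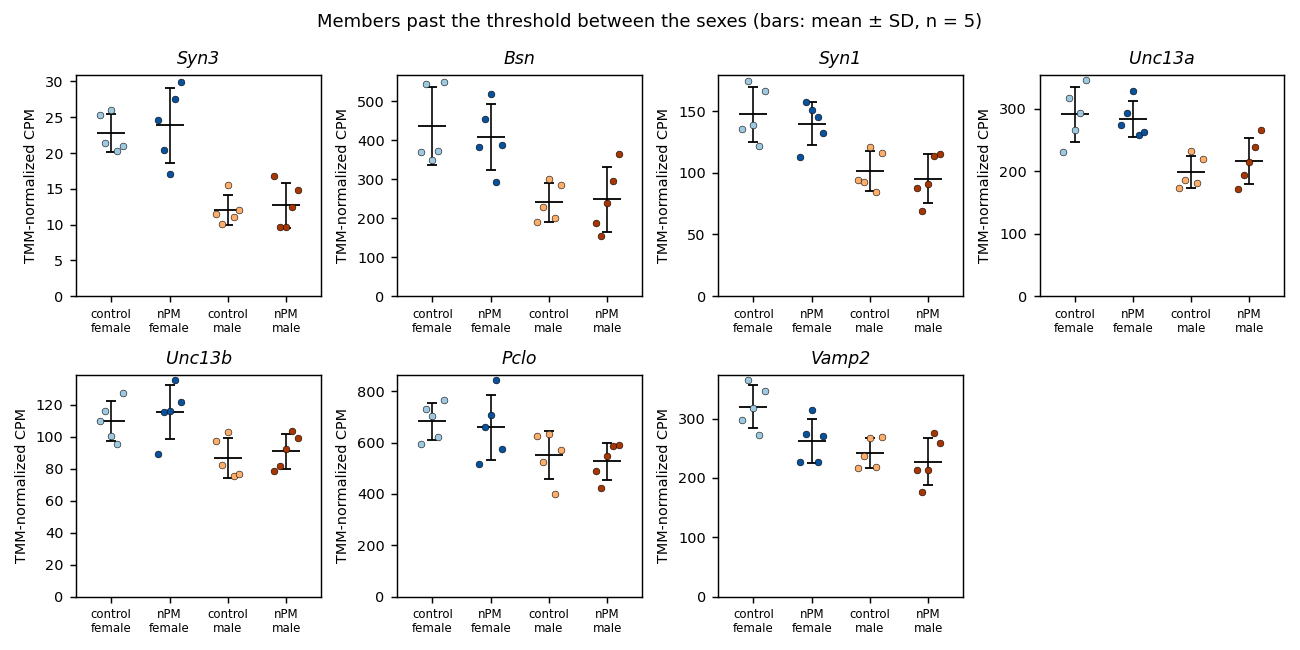
TMM-normalized CPM of the 7 genes with p under 0.005 between males and females are plotted for each sample by group, with the mean and SD (n = 5) as bars and each axis starting at 0. All female points of Syn3 lie above all male points, and the other 6 genes overlap between the sexes. Control and nPM samples of a sex overlap in each gene, with nPM females of Vamp2 reaching lower than control females.

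With age added as a covariate, 0 of the 32 genes passed the threshold between the sexes, Syn3 stood at −0.71 (limma adjusted p = 0.898), Bsn at −0.28 and Syn1 at −0.10, and Vamp2, Unc13a, Unc13b and Pclo took values between 0.03 and 0.07. With the choroid plexus level as a covariate, an alternative chosen after the data were seen, 11 of the 32 genes passed: 6 of the 7 genes were lower in males (Pclo missed the threshold, with a limma adjusted p of 0.0177), and Sv2b, Snap25, Napb, Rab3a and Rab3c were higher. The median summed choroid plexus level was 4877 CPM in control males, 702 CPM in control females, 1595 CPM in nPM males and 354 CPM in nPM females.

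Promoter windows of RefSeq on the GRCm38.p6 build, 250 bases before to 50 bases after a start, were matched to 27 of the 32 genes, and the genes without a window were Syngr3, Syn3, Snap25, Vamp2 and Rims2. The 32 windows of the 27 genes held a median of 18 CpG against 7 over all 32851 windows, and had a median GC content of 62.3% against 52.7%. The 250 bases before the start are shown for Syn1, Unc13a and Bsn, since these genes, with Vamp2, varied together between samples of a group and were lower in males. Each is written 5′ to 3′ on the strand of its gene. Capitals mark, in Syn1, the NRF1 core (CGCATGCG), the left half-site of RE1 (TTCAGCACC, part of the element bound by the repressor REST) and CRE (TGACGTCA), in Unc13a the EGR1 motif (GCGTGGGCG), and in Bsn the NRF1 core. All were searched as exact letters on both strands, and the EGR1 match of Unc13a overlaps a GC box (GGGCGG), which is not marked. Starts are those of RefSeq, and in the gene model of the deposited table, which begins further upstream for Syn1, 86 of the Syn1 bases, 1 of the Bsn bases and 0 of the Unc13a bases shown lie inside the gene.
Syn1, chrX:20920919-20921168, minus strand: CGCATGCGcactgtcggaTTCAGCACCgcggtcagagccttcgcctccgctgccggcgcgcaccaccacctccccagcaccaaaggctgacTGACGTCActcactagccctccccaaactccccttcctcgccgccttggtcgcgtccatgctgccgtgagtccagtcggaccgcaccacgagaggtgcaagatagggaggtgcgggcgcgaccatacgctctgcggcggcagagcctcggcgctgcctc
Unc13a, chr8:71671758-71672007, minus strand: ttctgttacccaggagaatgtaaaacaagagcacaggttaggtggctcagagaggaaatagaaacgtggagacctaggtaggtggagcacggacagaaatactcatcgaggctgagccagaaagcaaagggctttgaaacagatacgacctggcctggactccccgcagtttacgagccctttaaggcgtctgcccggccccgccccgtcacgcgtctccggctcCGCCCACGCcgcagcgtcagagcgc
Bsn, chr9:108190384-108190633, minus strand: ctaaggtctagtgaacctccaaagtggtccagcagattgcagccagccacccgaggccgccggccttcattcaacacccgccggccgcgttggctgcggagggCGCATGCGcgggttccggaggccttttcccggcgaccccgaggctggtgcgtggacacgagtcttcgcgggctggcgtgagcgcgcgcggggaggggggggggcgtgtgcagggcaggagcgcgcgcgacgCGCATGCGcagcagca

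In Syn1 the NRF1 core began 250 bases, the RE1 half-site 232 bases and CRE 159 bases before the RefSeq start. The RE1 half-site was found in 0.371% of all windows and for 2 of the 27 genes, Syn1 and Unc13a, in the latter after the start. CRE was found in 1.79% of all windows and for 1 of the 27 genes, Syn1. The NRF1 core, in 1.87% of all windows, was found for Syn1, for Stxbp5 and for Bsn, where it began 147 and 16 bases before the start. The EGR1 motif, in 0.612% of all windows, was found for Unc13a, where it began 25 bases before the start on the opposite strand. The GC box GGGCGG was found for 21 of the 27 genes, in 21 of their 32 windows, and in 35.7% of all windows. TATAAA was found for Rab3b and Sv2b, in 3 of the 32 windows, and in 13.6% of all windows. For the other motifs the count of windows, out of 32, equalled the count of genes. A match describes letters in a window and no site or cause.

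Of the 101 other presynaptic genes, 25 were higher and 19 lower in males at p under 0.005, where 13.9% of all genes were higher and 17.1% lower. Of 18 active zone genes 7 were lower, Ppfia4, Git1, Rimbp2, Nrxn2, Ppfia1, Ppfia3 and Erc1, and 1 was higher, Lin7a. Ppfia4, a liprin-alpha scaffold, had the smallest p of the 101 genes (−0.53, SE 0.078, limma adjusted p = 3.57e-05), and Rimbp2, which links RIM proteins to calcium channels, was at −0.41 (SE 0.081, limma adjusted p = 0.000433). Of 21 vesicle proteins, transporters and Rab3 cycle genes 7 were higher, among them Rabac1, Rab27b, Synpr, Scamp1, Sypl and Dnajc5, and 1 was lower, Madd, the exchange factor of Rab3.

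Of 19 calcium sensor and priming genes, Syt4, Syt5 and Syt11 were higher in males, and Syt7, Doc2b and Rph3a, a binding partner of Rab3a, were lower. Syt7, the slow calcium sensor of the synaptotagmin family, was at −0.46 (SE 0.075, limma adjusted p = 9.15e-05). Of 21 SNARE genes 8 were higher, Stx7, Stx12, Vti1b, Napg, Snap47, Snap29, Vamp3 and Vamp4, most of them known from endosomal membranes, and 3 were lower, among them Stx3 and Stxbp5l. Of 22 endocytosis genes 6 were higher, Ap2s1, Sh3gl3, Clta, Ap2m1, Cltb and Eps15, and 5 were lower, the dynamins Dnm1 and Dnm2, the intersectins Itsn1 and Itsn2, and Pacsin1. Dnm1, the dynamin of nerve terminals, was at −0.43 (SE 0.085, limma adjusted p = 0.000434). The medians of these lists between the sexes were −0.18 for active zone genes, 0.17 for vesicle genes, 0.15 for calcium sensors, 0.10 for SNARE genes and 0.03 for endocytosis genes, against 0.02 over all genes.

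After the group means were removed, the 32 genes tended to vary together over the 20 samples. The median Pearson's r was 0.36 over the 496 pairs, 399 pairs were above 0 and 17 above 0.8, all as a description of samples that share library and dissection. No r was computed for pairs of other genes, so these values do not set the 32 genes apart from other genes. A set of vesicle and fusion genes held the pairs Snap25 and Napb (r = 0.91, Spearman's rho = 0.90), Napb and Rab3c (r = 0.88, rho = 0.94) and Sv2b and Napb (r = 0.86, rho = 0.85). Another set held Vamp2 and Bsn (r = 0.89, rho = 0.86), Syn1 and Vamp2 (r = 0.88, rho = 0.86) and Unc13a and Bsn (r = 0.88, rho = 0.92). A further pair was that of the active zone genes Rims1 and Pclo (r = 0.86, rho = 0.89). Without the 2 samples farthest from the median of the first gene, these r were 0.91, 0.89, 0.81, 0.87, 0.84, 0.86 and 0.77 in the same order.

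Sv2c ran the other way, with r = −0.79 to its relative Sv2b (rho = −0.69, and r = −0.74 without 2 samples). Sv2c had r = 0.83 with the mean level of the thalamic markers that passed the filter (rho = 0.77, and r = 0.76 without 2 samples), and Sv2b had r = −0.87 with the same list (rho = −0.78, and r = −0.84 without 2 samples). The 12 thalamic markers summed to between 226 and 508 CPM, and Gbx2 among them was at 0 counts in at least 1 sample. Rims3 had r = 0.82 (rho = 0.80) and Cplx3 r = 0.75 (rho = 0.83) with 11 neocortical layer markers, which summed to between 248 and 432 CPM. Snap25 had r = −0.81 (rho = −0.81) and Napb r = −0.84 (rho = −0.84) with the choroid plexus markers, whereas Bsn was at −0.12 and Unc13a at −0.08. Others of these sets lay between, with Rab3c at −0.68, Sv2b at −0.55, Syn1 at −0.49, Slc17a7 at −0.36 and Vamp2 at −0.33. Markers of hippocampal neurons gave large r as well. Snap25 and Napb had r = 0.70 and 0.66 with pan-neuronal markers. Their r was 0.72 and 0.66 with GABAergic interneuron markers, and −0.70 and −0.71 with dentate granule cell markers. Bsn and Unc13a stood at 0.22 and 0.11, 0.37 and 0.31, and −0.01 and 0.07 with these lists in the same order. Vamp2 stood at 0.36, 0.43 and −0.20, Syn1 at 0.34, 0.41 and −0.15, and Slc17a7 at 0.47, 0.58 and −0.33. Whether tissue carried over in dissection, or the mix of hippocampal cells, has a part in these patterns was not tested. In whole tissue fewer terminals of a type cannot be told from less RNA per cell.

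**Figure D5:**
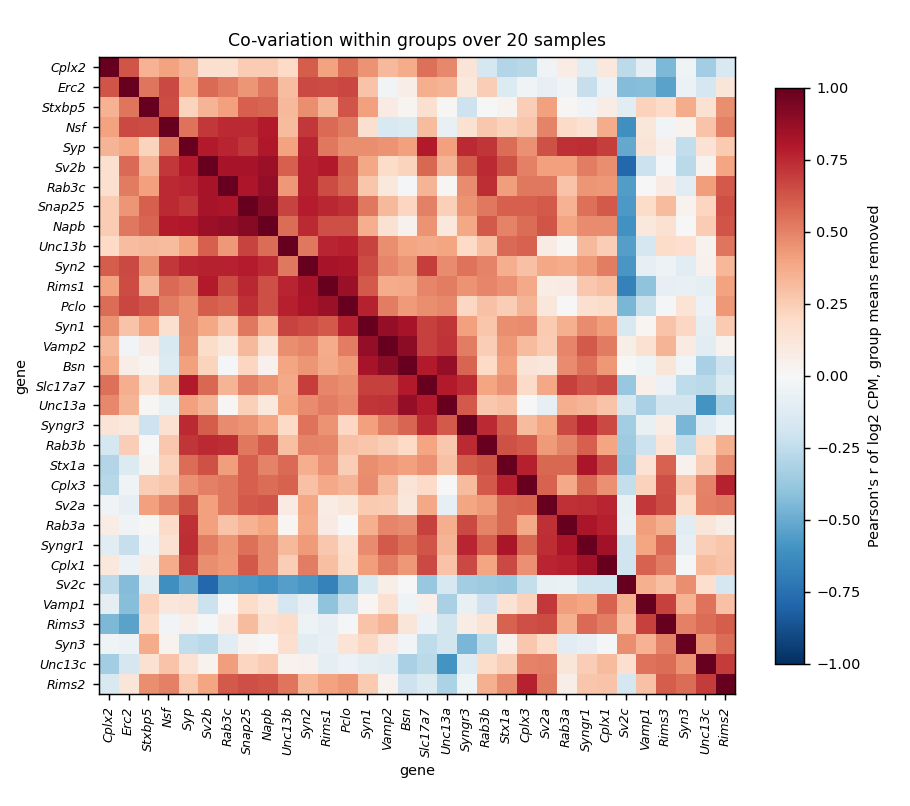
Pearson's r between each pair of the 32 genes over 20 samples, computed on log2 CPM after the group means were removed, is shown from blue (−1) through white (0) to red (1), with genes ordered by average-linkage clustering. A red block joins Nsf, Syp, Sv2b, Rab3c, Snap25 and Napb, another joins Syn1, Vamp2, Bsn, Slc17a7 and Unc13a, and the row of Sv2c is mostly blue.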

How the data were processed

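Whole-tissue RNA of 20 hippocampi was sequenced after depletion of ribosomal RNA. Per the labels and methods, the authors used HISAT2 for alignment (build mm10) and featureCounts 1.5.0-p3 for counting reads per gene of Gencode M11. The deposited values are whole-number counts of 48709 genes without normalization. The deposited gene table also holds lengths and the authors' mean RPKM, which differed by at most 4.91e-11 from the counts per length and was not used further. The mapping of samples to groups came from the titles and characteristics.

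From the counts, TMM factors (0.958 to 1.06) and filterByExpr over the 4 groups (minimum count 10, minimum total 15) were computed with edgeR 4.0.16. The main test was limma-voom (limma 3.58.1, R 4.3.3, offset of 0.5 counts), two-sided, at the study's threshold of 0.005, with Benjamini-Hochberg adjusted p over 19797 genes. Values of 1 gene were also compared by two-sided exact permutation within sex or within exposure. Tests in 1 sex, of 5 against 5 samples, allow no p below 0.00794, and tests over all 20 samples used 63504 splits. Squared differences between samples of a group were 14.3 to 78.4 times counting noise over 40 pairs, so no pair of samples looked like 1 library. The fits were tested on simulated data. Alternatives were the edgeR quasi-likelihood test, DESeq2 1.42.0, RLE factors, no filter, quality weights, age, a replicate block, protein-coding genes, 1 fit of the 4 groups and each sample left out in turn. Others, added after the data were seen, were removal of a GC trend, the choroid plexus level as a covariate, and 2 nPM female samples left out.

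The 32 genes, the other gene lists and the tests were chosen with earlier results of these data known. Values in every sample are written out or plotted for genes with p under 0.005 in any fit or with the 2 smallest p in a fit. Other presynaptic genes are named where p was under 0.005, or for the smallest p of a fit where none passed. Sv2a, Unc13c and genes named for their correlations were chosen after their values were seen. Promoter motifs were chosen after the windows had been read. Some genes of the wider lists are counted but not reported here by name. Counts were not corrected for overlapping genes. Tables were made with Python 3.11.15, pandas 2.3.3, scipy 1.17.1 and matplotlib 3.10.9.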

Additional observations from a re-analysis of the deposited data

Results flagged for a closer look

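In 3 of the 128 combinations of a gene and a group of 5 samples, 1 sample stood apart from the other 4 by Dixon's test, where about 6.4 are expected by chance. Vamp1 read 161.8 CPM in nPM male 1 and 63.0 to 70.6 CPM in the other nPM males. Unc13c read 79.6 CPM in control male 1 and 21.7 to 25.3 CPM in the other control males. Syp read 708.8 CPM in nPM male 4 and 634 to 642 CPM in the other nPM males. No gene of the 32 had a difference between the nPM effects of the sexes that passed the threshold.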

How the results depend on the processing

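The count of genes past p under 0.005 was 0 with both sexes, in females and in the interaction under every alternative and with each sample left out. In males it was 0 under every alternative and 0 to 2 with 1 sample left out, the 2 being Stx1a and Rab3b without nPM male 4. Between the sexes the count of 7 became 0 with age as a covariate and 11 with the choroid plexus level as a covariate. With age, Vamp2, Unc13a, Unc13b and Pclo changed sign, to 0.072, 0.028, 0.061 and 0.073, and since age and sex do not overlap here this fit cannot separate them. With 1 sample left out the count between the sexes was 6 to 8, and Pclo had p between 0.00529 and 0.00624 in the 6 of 20 fits in which it missed the threshold. The number of positive values in females, 8, became 17 without nPM females 1 and 4, and their median 0.007, and it was 6 to 15 with 1 sample left out. The number of positive values in the interaction, 17, became 11 with the choroid plexus level, and was 11 to 22 with 1 sample left out. The cause was not tested. Without the filter, the median of all genes between the sexes moved by −0.124, and the same 7 genes passed. Same-numbered control and nPM samples of a sex had correlations of −0.364 to 0.157 across genes. Differently numbered samples were not compared, so these values cannot tell whether a number stands for a shared factor. With the replicate block the counts stayed at 0 for nPM and at 7 between the sexes. Counts per sample were lowest for Cplx3, at 21 to 215.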
